A study of Mus musculus with 24 samples.

Results

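Hepatic stellate cells are the vitamin A-storing pericytes of the liver, which lie between hepatocytes and the sinusoidal endothelium. When the liver is injured they lose their retinyl esters and become contractile myofibroblasts, driven by transforming growth factor beta and platelet-derived growth factor, and lay down collagen. The genes described here are 35 transcripts of these cells and of the extracellular matrix, a list of symbols given by name. All 35 were found among the 46093 gene symbols held by both deposited count tables, 1 table for females and 1 for males. After a filter on low counts 30 of them could be tested among 11830 genes in females and 33 among 14873 genes in males. Lox and Timp1 were too low in both tables, and Fbn1, Loxl1 and Thbs1 were too low in females.

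The 24 libraries were made from livers of C57BL/6 mice and form 8 groups of 3. Females were Cyp2b-null (KO) or wild type (WT) by their titles. They received a diet with 60% fat (HFD) or normal chow (ND) for 10 weeks, and males of both genotypes received the same diets. The Cyp2b-null line carries a deletion of Cyp2b9, Cyp2b10 and Cyp2b13, cytochrome P450 genes of the liver, and the series asks what their loss does in diet-induced obesity. Male and female RNA was extracted and made into libraries by different kits. Sex and kit therefore cannot be told apart, and each sex was tested alone. Whole liver was used, so fewer stellate cells and less of a transcript per cell cannot be told apart in any value below. Whether each library is its own mouse is not stated in the labels, and the p-values cover only the spread from library to library, which may be technical.

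Library totals ran from 2005120 to 2661836 counts in females and from 8282510 to 20176050 counts in males. In females the targeted genes followed the titles, which name the groups here and which the genotype label of 6 female libraries contradicts. Cyp2b9 had 0 to 17 counts in the 6 Cyp2b-null libraries and 788 to 1245 in the 6 WT libraries. Cyp2b13 had 0 counts in the Cyp2b-null libraries and 565 to 1138 in the WT libraries. Cyp2b10 had 0 to 17 and 14 to 97 counts in these groups, which overlap. Within each diet its counts did not, with 4 to 17 and 34 to 92 on ND, and 0 to 4 and 14 to 97 on HFD. In males the targeted genes did not settle the label. On ND Cyp2b9 went against it without overlap, with 24 to 59 counts in the 3 libraries labelled Cyp2b-null and 1 to 4 in the 3 labelled WT, while Cyp2b10 went with it, with 4 to 15 counts in the libraries labelled Cyp2b-null and 30 to 97 in those labelled WT. On HFD Cyp2b9 had 19 to 85 counts in libraries labelled Cyp2b-null and 48 to 797 in those labelled WT. Cyp2b10 had 5 to 26 and 7 to 15 in the same groups, with overlap for both genes. Cyp2b13 overlapped between the labels on each diet. It had 7 to 89 counts (labelled Cyp2b-null) and 23 to 33 (labelled WT) on ND, and 37 to 64 and 40 to 85 on HFD. The male groups, WT included, are therefore called by their label, and every male genotype direction below rests on it. Among males, ND library 1 of those labelled Cyp2b-null differed from all the rest. Its 13 mitochondrially encoded mRNAs took 32% of the counts, against at most 7.76% in the other male libraries, and its median Spearman correlation with the rest was 0.8002, against 0.9654 or more. Every male result that rests on this library is given with and without it. In females the first principal component held 29.2% of the variance and put 5 libraries on one side, WT ND 1, WT HFD 1, Cyp2b-null HFD 2 and Cyp2b-null ND 2 and 3, so that it did not follow genotype or diet. The mitochondrial share was 13.96% in WT ND 1, 8.538% in WT HFD 1, 7.173% in Cyp2b-null ND 3 and 6.522% in Cyp2b-null HFD 2, above the 5.556% or less of all other female libraries, among them Cyp2b-null ND 2 (5.412%). With a term for these sides, which was added after seeing the data and is defined from the counts it adjusts, 0 members were called in each of the 5 female comparisons, and the medians over the members kept their signs.

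Every member was detected in at least 1 library of each sex, which does not show which liver cells its reads came from. Decorin (Dcn), a small leucine-rich proteoglycan that binds collagen fibrils, was the most abundant member per kilobase of exon in both sexes, with a median over the 12 libraries of a table of 20.4 counts per 1000000 of the library (CPM) per kilobase (kb) in females and 19.9 in males. Next came biglycan (Bgn), its relative on the X chromosome, with medians of 11.9 and 10.6 CPM per kb in females and males, and osteonectin (Sparc), a calcium-binding matricellular protein, with 14.1 and 8.24. Lecithin retinol acyltransferase (Lrat), which esterifies the stored vitamin A and marks quiescent stellate cells, was at 2.56 CPM per kb in females and 3.36 in males. Reelin (Reln), a secreted glycoprotein that stellate cells make among liver cells, was at 1.89 and 2.53. Type I collagen, the main fibre of scar tissue, was far below the proteoglycans, with 0.870 and 0.472 CPM per kb for Col1a1 in females and males. Of 22 further stellate cell markers that are not members, none was at 0 in all libraries of a table, and Colec11, a collectin, had between 27.1 and 52.5 CPM in females and between 18.9 and 31.9 in males.

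At the low end were lysyl oxidase (Lox), which cross-links collagen and elastin, with 0 to 5 counts per library in females and 0 to 3 in males, and Timp1, an inhibitor of matrix metalloproteases that activated stellate cells secrete, with 0 to 10 and 0 to 5 counts. At these counts no difference in Lox or Timp1 was detectable. The summed level of the 35 members ran from 489 to 766 CPM in females and from 309 to 662 CPM in males, so that they made up a very small share of either transcriptome. The heat map of all members tested shows each library against its own table.

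**Figure D1:**
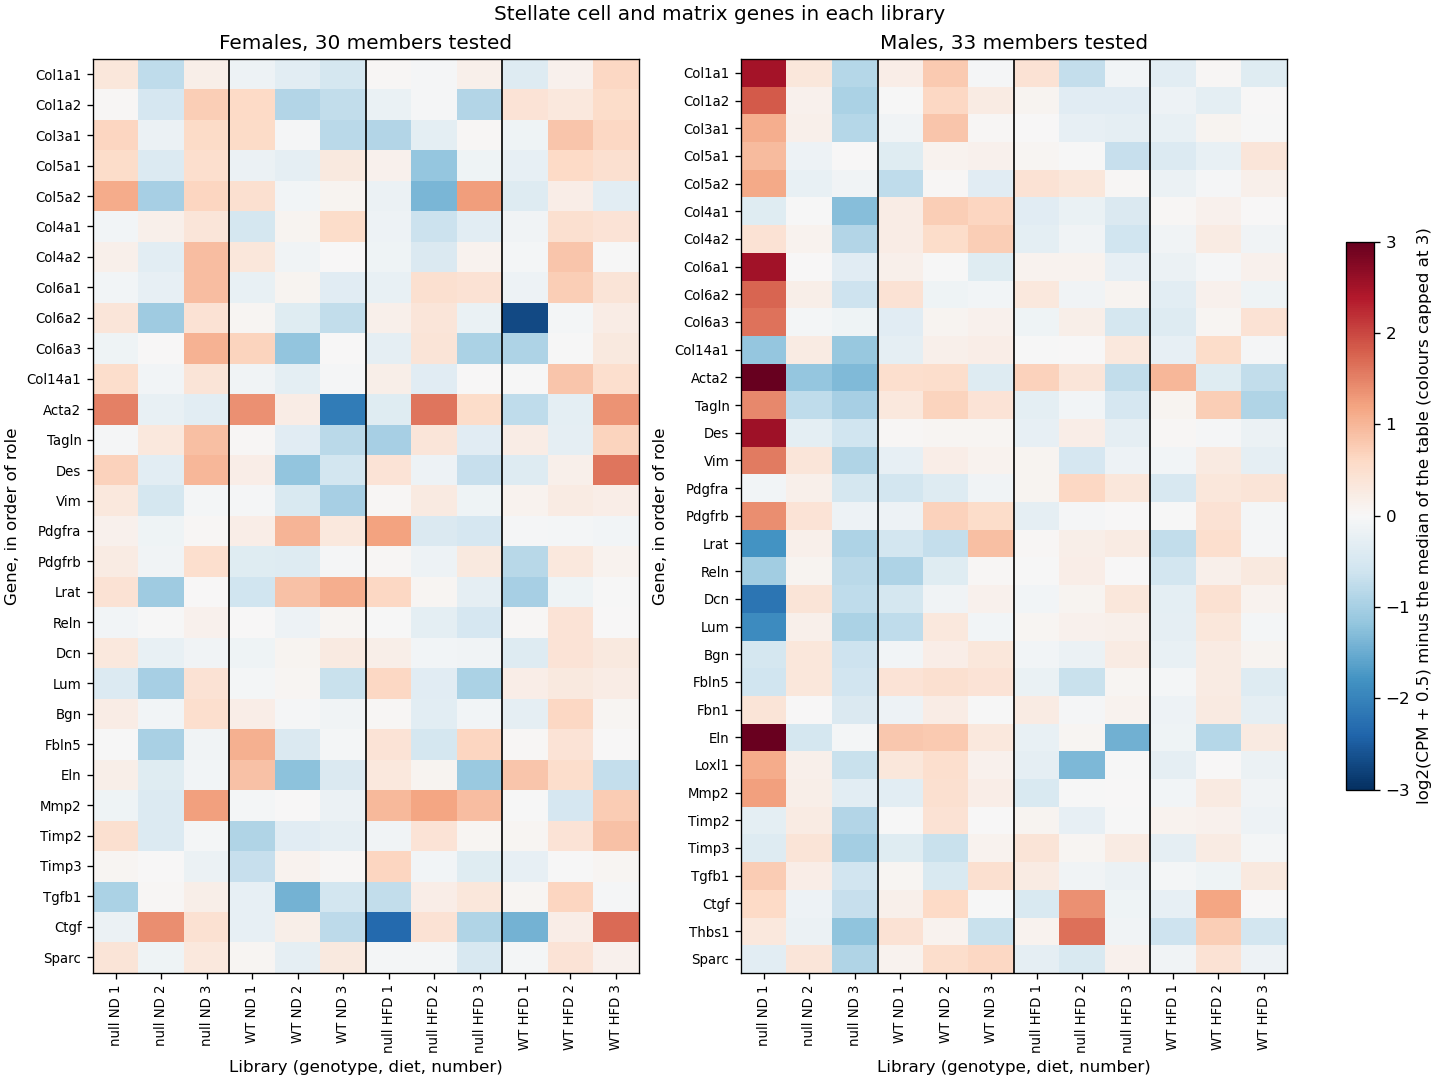
Level of each member tested in each library, as log2(CPM + 0.5) minus the gene's median over the 12 libraries of its table (left, 30 members in females; right, 33 in males; colours capped at 3), with columns grouped by genotype and diet. In males library 1 of the labelled Cyp2b-null ND group was the highest of 12 for 18 members and the lowest for 5, and library 3 of that group was the lowest for 18.

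No member passed the test in any of the 10 comparisons (5 per sex) when all libraries were fitted, by edgeR's quasi-likelihood test with Benjamini-Hochberg adjustment over all genes tested and a threshold of 0.05. DESeq2 on the same counts called 1 member, Col4a1, in males labelled Cyp2b-null against WT on ND, and 0 in the other 9 comparisons. The share of all genes called by DESeq2 is not given here, so that call does not set Col4a1 apart from other genes. By edgeR few genes passed in these comparisons at all, as the share of all genes called shows beside each count. The member values below are therefore descriptive, some at an unadjusted p under 0.05 and others above it, and none of them counts as a change.

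In females on ND, 0 of 30 members were called between Cyp2b-null and WT, against 0.127% of all genes tested, and 0 were at an unadjusted p under 0.05, against 6.33% of all genes. The log2 difference, Cyp2b-null minus WT, was above 0 for 25 of 30 members and for 47.4% of all genes, with a median of 0.35 over the members and -0.02 over all genes. All 5 fibrillar collagens (Col1a1, Col1a2, Col3a1, Col5a1 and Col5a2, the rope-like collagens of the interstitial matrix) were above 0, with a median of 0.35. So were the 4 contractile and cytoskeletal genes (Acta2 and Tagln of the smooth muscle contractile apparatus, and the intermediate filaments Des and Vim), with a median of 0.61, and the 4 genes of collagen VI and collagen XIV, with a median of 0.43. Leaving out each library in turn moved the median over the members between 0.13 (without Cyp2b-null ND library 3) and 0.57 (without Cyp2b-null ND library 2). Cyp2b-null ND library 3 was the highest of the 12 female libraries for 8 of 30 members, against 6.12% of all genes. Pdgfra, the receptor for platelet-derived growth factor A chains, was the 1 member whose groups did not overlap, with 4.34, 3.59 and 4.04 CPM in Cyp2b-null and 4.63, 8.48 and 5.04 CPM in WT females, where 6.1% of all genes stood below WT in this way.

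Immediate early genes, which respond to tissue handling within minutes, also stood apart in this comparison. Their summed level over 14 genes was between 2399 and 3286 CPM in Cyp2b-null and between 479 and 1318 CPM in WT females on ND, and 12 of 13 tested were above 0, with a median log2 difference of 1.65. None of the 14 was at 0 in every female library. Their part in the members' values was not tested.

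In females on HFD the members lay on the other side. The log2 difference, Cyp2b-null minus WT, was above 0 for 9 of 30 members and for 49.1% of all genes, with a median of -0.29 over the members and -0.01 over all genes. Without WT HFD library 2 the median over the members was -0.10 and without WT HFD library 3 it was -0.11, and with each other library left out it lay between -0.35 and -0.22. Of the members 0 were called, against 0.0169% of all genes, and 3 had an unadjusted p under 0.05, all lower in Cyp2b-null, which 1.45% of all genes were. These 3 were collagens of different kinds.

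Col3a1, which with type I collagen forms the fibres of the portal tracts and sinusoids (chromosome 1, 45311538 to 45349706, plus strand, GRCm38), had 12.5, 19.0 and 23.8 CPM in Cyp2b-null and 21.2, 42.1 and 36.3 CPM in WT females on HFD. The groups overlapped, and the log2 difference was -0.85 ± 0.37 (SE, 3 libraries a group; unadjusted p = 0.0365, edgeR adjusted p = 0.9998). Col4a1, a chain of the network collagen of basement membranes, had 16.4, 11.6 and 14.7 CPM in Cyp2b-null and 17.0, 25.8 and 24.7 CPM in WT females. Here the Cyp2b-null libraries were all below the WT libraries, with a log2 difference of -0.65 ± 0.29 (unadjusted p = 0.0421, edgeR adjusted p = 0.9998). Col14a1, a fibril-associated collagen (chromosome 15, 55307750 to 55520803, plus strand), had 38.0, 26.4 and 33.9 CPM in Cyp2b-null and 33.6, 60.8 and 48.2 CPM in WT females, overlapping groups, with a log2 difference of -0.53 ± 0.24 (unadjusted p = 0.0455, edgeR adjusted p = 0.9998).

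Reln, with 44.6, 36.5 and 31.7 CPM in Cyp2b-null and 46.0, 60.0 and 44.9 CPM in WT females on HFD, had groups that did not overlap and a log2 difference of -0.42 ± 0.20 (unadjusted p = 0.0519). Col1a2 and Sparc were also lower in every Cyp2b-null library than in any WT library, which makes 4 of 30 members with Col4a1 and Reln, against 3.59% of all genes. Mmp2, the gelatinase that stellate cells secrete, stood the other way, with 4.30, 5.09 and 4.15 CPM in Cyp2b-null and 1.93, 1.25 and 3.71 CPM in WT females, and was the 1 of 30 members above WT without overlap (3.38% of all genes). These members are not independent of one another, as they come from the same 6 libraries, and WT HFD library 2 was the highest of the 12 female libraries for 8 of 30 members, against 5.88% of all genes.

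The diet comparison in WT females held the smallest unadjusted p of any member in that table. Of 30 members 0 were called between HFD and ND, against 0.0169% of all genes, and 4 had an unadjusted p under 0.05, all higher on HFD, which 1.67% of all genes were. The log2 difference, HFD minus ND, was above 0 for 23 of 30 members and 49.7% of all genes, with a median of 0.27. When each library was left out the median lay between 0.23 and 0.44. It was 0.44 without WT ND library 1 and 0.42 without WT HFD library 1. Timp2, an inhibitor of metalloproteases that also helps to activate Mmp2 (chromosome 11, 118301069 to 118355740, minus strand), had 15.8, 20.4 and 28.4 CPM on HFD and 7.87, 11.98 and 12.6 CPM on ND. Every HFD library was above every ND library, with a log2 difference of 0.99 ± 0.32 (95% interval 0.31 to 1.66; unadjusted p = 0.00691, edgeR adjusted p = 0.9999). Transforming growth factor beta 1 (Tgfb1), the main profibrotic cytokine of the liver, had 9.27, 14.2 and 8.66 CPM on HFD and 7.41, 2.99 and 5.88 CPM on ND, again with no overlap, and a log2 difference of 0.96 ± 0.44 (unadjusted p = 0.045).

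Vimentin (Vim) had 23.9, 26.7 and 25.6 CPM on HFD and 21.8, 16.0 and 10.9 CPM on ND in WT females (0.65 ± 0.28, unadjusted p = 0.0347). Col14a1 had 33.6, 60.8 and 48.2 CPM on HFD and 31.5, 27.4 and 32.8 CPM on ND (0.63 ± 0.25, unadjusted p = 0.0213). Neither gene's groups overlapped, nor did those of lumican (Lum), another collagen-binding proteoglycan, so that 5 of 30 members stood higher on HFD without overlap, against 3.89% of all genes. Lrat was on the other side, with 6.56, 12.5 and 13.6 CPM on HFD and 8.80, 25.5 and 29.8 CPM on ND, overlapping groups and a log2 difference of -0.98 ± 0.46 (unadjusted p = 0.0537). Pdgfra was the 1 member lower on HFD without overlap, with 3.86, 3.75 and 3.71 CPM on HFD and 4.63, 8.48 and 5.04 CPM on ND, against 3.97% of all genes. The plot of female members shows these values by library.

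**Figure D2:**
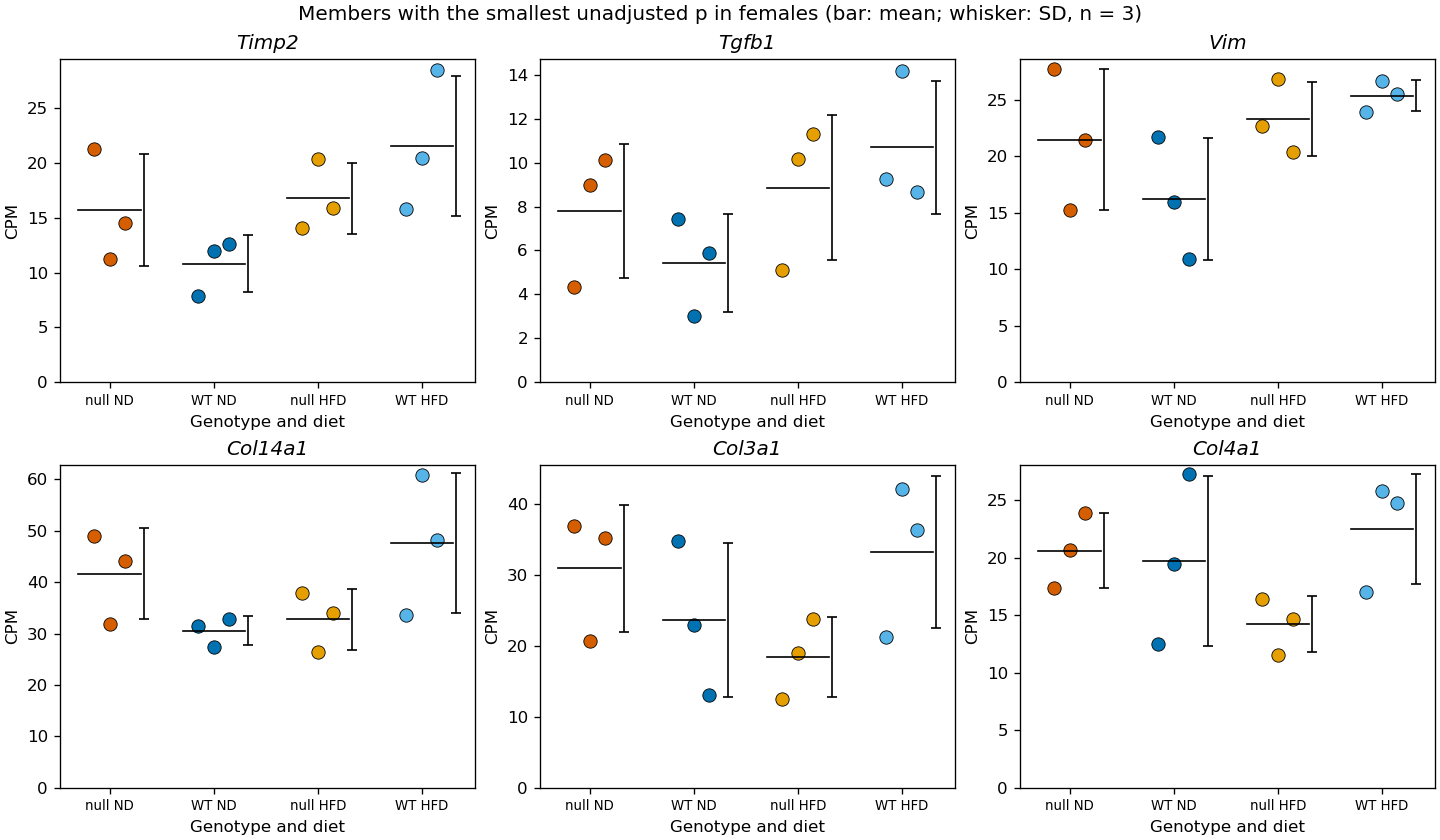
Scaled counts (CPM, linear axis from 0) in each female library for 6 members, by genotype and diet; points are libraries, bars the group mean and whiskers the SD of 3 libraries. In WT females Timp2, Tgfb1, Vim and Col14a1 were higher in all 3 HFD libraries than in any ND library, while Col4a1 in Cyp2b-null HFD libraries lay below all WT HFD libraries.

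Markers of portal fibroblasts and mesothelium, other matrix-producing cells at the liver's edge and portal tracts, differed in the same comparison. Their sum over 13 genes was 34.4, 27.9 and 59.8 CPM in WT females on HFD and 22.2, 20.5 and 18.1 CPM on ND, and all 6 tested were above 0. None of the 13 was at 0 in every female library, though Gli1 and Pi16 had a median of 0 CPM. Markers of Kupffer cells, the resident macrophages and a source of Tgfb1, were above 0 for 16 of 16, with a median log2 difference of 0.51. Their sum overlapped between the diets, with 454, 854 and 506 CPM on HFD and 423, 294 and 593 CPM on ND in WT females. The 16 come from the same libraries and are not independent of one another. The part of these cells in the members' values was not tested.

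In Cyp2b-null females the same diet gave no such pattern of members. The log2 difference, HFD minus ND, was above 0 for 12 of 30 members and 51.3% of all genes, with a median of -0.12, which lay between -0.41 (without Cyp2b-null HFD library 1) and -0.07 (without Cyp2b-null ND library 3) when each library was left out. Of the members 0 were called (0% of all genes) and 0 were at an unadjusted p under 0.05 (4.8% of all genes). Col4a1 was the 1 member with no overlap, at 16.4, 11.6 and 14.7 CPM on HFD and 17.4, 20.7 and 23.9 CPM on ND, against 5.05% of all genes lower in this way.

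The interaction asks whether the genotype difference itself differed between the diets. Of 30 female members 0 were called (0% of all genes) and 4 had an unadjusted p under 0.05, all below 0, which 1.55% of all genes were. These were Col14a1 (log2 interaction -0.98 ± 0.35, unadjusted p = 0.0131), Col3a1 (-1.24 ± 0.52, unadjusted p = 0.0303), Tagln (-1.31 ± 0.55, unadjusted p = 0.0316) and Des (-1.89 ± 0.83, unadjusted p = 0.0384), each with an edgeR adjusted p of 0.9995. Tagln encodes transgelin, an actin-binding protein of contractile cells. It had 11.7, 15.3 and 23.0 CPM in Cyp2b-null and 12.5, 9.48 and 6.72 CPM in WT females on ND, and 5.87, 15.7 and 9.43 CPM in Cyp2b-null and 14.3, 9.995 and 19.4 CPM in WT females on HFD. Desmin (Des), an intermediate filament by which rodent stellate cells are stained, had 8.68, 4.04 and 10.9 CPM in Cyp2b-null and 6.02, 1.996 and 3.36 CPM in WT on ND, and 7.04, 4.63 and 3.02 CPM in Cyp2b-null and 3.86, 5.83 and 16.9 CPM in WT on HFD. For Des 1 library, WT HFD 3, stood well above the other 11, and without it the interaction was -1.03. The interaction was above 0 for 8 of 30 members, against 51.4% of all genes, with a median of -0.50 over the members.

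In males the result for many members rests on 1 library. Between males labelled Cyp2b-null and WT on ND 0 of 33 members were called, against 0.0134% of all genes tested, and 2 had an unadjusted p under 0.05 (18.6% of all genes), Col4a1 below 0 and Col6a1 above 0. Without the divergent library 0 of 33 were called (0.0462% of 15139 genes), and 5 had an unadjusted p under 0.05, all lower in males labelled Cyp2b-null: Col4a1, Col4a2, Acta2, Tagln and Eln, where 7.24% of all genes were. The log2 difference was above 0 for 18 of 33 members with all libraries (53.7% of all genes) and for 5 of 33 without the divergent one (52.1%). The median over the members was 0.01 with it and -0.31 without it, and 0.35 without library 3 of the same group.

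Of all genes, 18.6% had an unadjusted p under 0.05 with the divergent library and 17.3% without it. Col4a1 was the only member at such a p in both fits, and edgeR called it in neither. It had 13.8, 17.8 and 7.06 CPM in males labelled Cyp2b-null and 21.2, 30.3 and 28.5 CPM in WT males on ND. The groups did not overlap, with means of 12.9 ± 5.45 and 26.7 ± 4.82 CPM (SD, n = 3 each) in labelled Cyp2b-null and WT males. The log2 difference was -1.05 ± 0.29 with all libraries (95% interval -1.68 to -0.41; unadjusted p = 0.00378, edgeR adjusted p = 0.194) and -1.09 ± 0.30 without the divergent one (adjusted p = 0.117). By DESeq2 with all libraries it was -1.06, with an adjusted p of 0.0425. Without library 2 of the same group, edgeR called Col4a1 too (-1.41, adjusted p = 0.0421), along with Col14a1. That fit leaves only the divergent library and library 3 in the group. Library 3 was itself the lowest male library for 18 of 33 members. The share of all genes called in that fit is not given here, so the call does not set Col4a1 apart from other genes.

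Col4a2, the partner chain with which Col4a1 forms the heterotrimer of basement membranes, had 17.8, 14.0 and 6.87 CPM in males labelled Cyp2b-null and 15.2, 19.5 and 22.1 CPM in WT males on ND. With all libraries the groups overlapped through the divergent library (log2 difference -0.57 ± 0.31, adjusted p = 0.339), and without it they did not (-0.86 ± 0.28, adjusted p = 0.169). Both genes lie head to head on chromosome 8, Col4a1 on the minus strand from 11198423 to 11312826 and Col4a2 on the plus strand from 11312805 to 11449287 (GRCm38). Their annotated first exons share 22 bases, chr8:11312805-11312826, which are shown because reads that lie there cannot be told apart between the genes unless counting used strand, and that is not given in the sources used here. In RefSeq's annotation of GRCm38.p6 the shared stretch, read 5′ to 3′ on the Col4a2 strand, is:
Col4a1 and Col4a2 shared first-exon bases: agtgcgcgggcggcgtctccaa

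On HFD the same pair again lay below WT. Col4a1 had 14.1, 15.6 and 13.2 CPM in males labelled Cyp2b-null and 18.3, 19.5 and 18.1 CPM in WT males on HFD, without overlap. With all libraries its log2 difference was -0.38 ± 0.29 (edgeR unadjusted p = 0.213, adjusted p = 0.9998). In the fit without the divergent library the smallest edgeR unadjusted p of any member here was 0.156. Col4a2 had 10.6, 12.02 and 8.47 CPM in males labelled Cyp2b-null and 12.2, 15.7 and 12.2 CPM in WT males, also without overlap. These were the 2 of 33 members without overlap in this comparison, against 3.6% of all genes below WT in this way. No member was called (0% of all genes with all libraries and 0% without the divergent one), 0 were at an unadjusted p under 0.05 (2.12% and 5.17% of all genes), and the median over the members was -0.05 in both fits. Its sign was not stable, as it lay between -0.16 (without WT HFD library 1) and 0.03 (without labelled Cyp2b-null HFD library 3) when each library was left out.

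Acta2 changed sides with the divergent library, while Tagln stayed below 0 and lay further from it without that library. Both are genes of contractile cells and were chosen for this account after their values were seen. Acta2, which encodes alpha smooth muscle actin, the usual stain for myofibroblasts (chromosome 19, 34241090 to 34255590, minus strand), had 60.6, 1.24 and 1.05 CPM in males labelled Cyp2b-null and 5.02, 5.09 and 2.48 CPM in WT males on ND. The first of these values, from 453 counts, was 24.0 times the median of the other 11 male libraries, which lay between 1.05 and 7.23 CPM. The log2 difference was 2.29 ± 1.22 with all libraries (unadjusted p = 0.084) and -1.86 ± 0.64 without that one (unadjusted p = 0.0132, edgeR adjusted p = 0.189). Tagln had 19.5, 3.87 and 3.20 CPM in males labelled Cyp2b-null and 8.74, 11.3 and 9.31 CPM in WT males, with log2 differences of -0.18 ± 0.61 with all libraries and -1.46 ± 0.40 without the divergent one (unadjusted p = 0.0026, edgeR adjusted p = 0.117). In both genes the other 2 libraries of the labelled Cyp2b-null group lay below all 3 WT libraries. In the same libraries the 10 smooth muscle markers summed to 156 and 187 CPM in males labelled Cyp2b-null and 142, 148 and 137 CPM in WT males. Most of each sum came from genes other than Myh11, the smooth muscle myosin, and the part of smooth muscle in the members' values was not tested. The 9 hepatocyte markers summed to 91311 and 92374 CPM in males labelled Cyp2b-null and 116156, 126957 and 149305 CPM in WT males, and their part in the members' values was not tested.

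Without the divergent library 8 of 33 members lay below WT on ND without overlap: Col4a1, Col4a2, Acta2, Tagln, Des, Fbln5, Eln and Ctgf. Of all genes 19.7% did so, with 2 libraries against 3. Library 3 of the labelled Cyp2b-null group was itself the lowest of the 12 male libraries for 18 of 33 members, among them Col1a1, Col3a1, Vim, Bgn and Sparc, where it was the lowest for 4.50% of all genes. With library 1 set aside the group therefore rests on 2 libraries that differed from each other. Dcn, for example, had 151 CPM in library 2 and 68.1 CPM in library 3 of the group, and 80.4, 108 and 127 CPM in WT males.

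**Figure D3:**
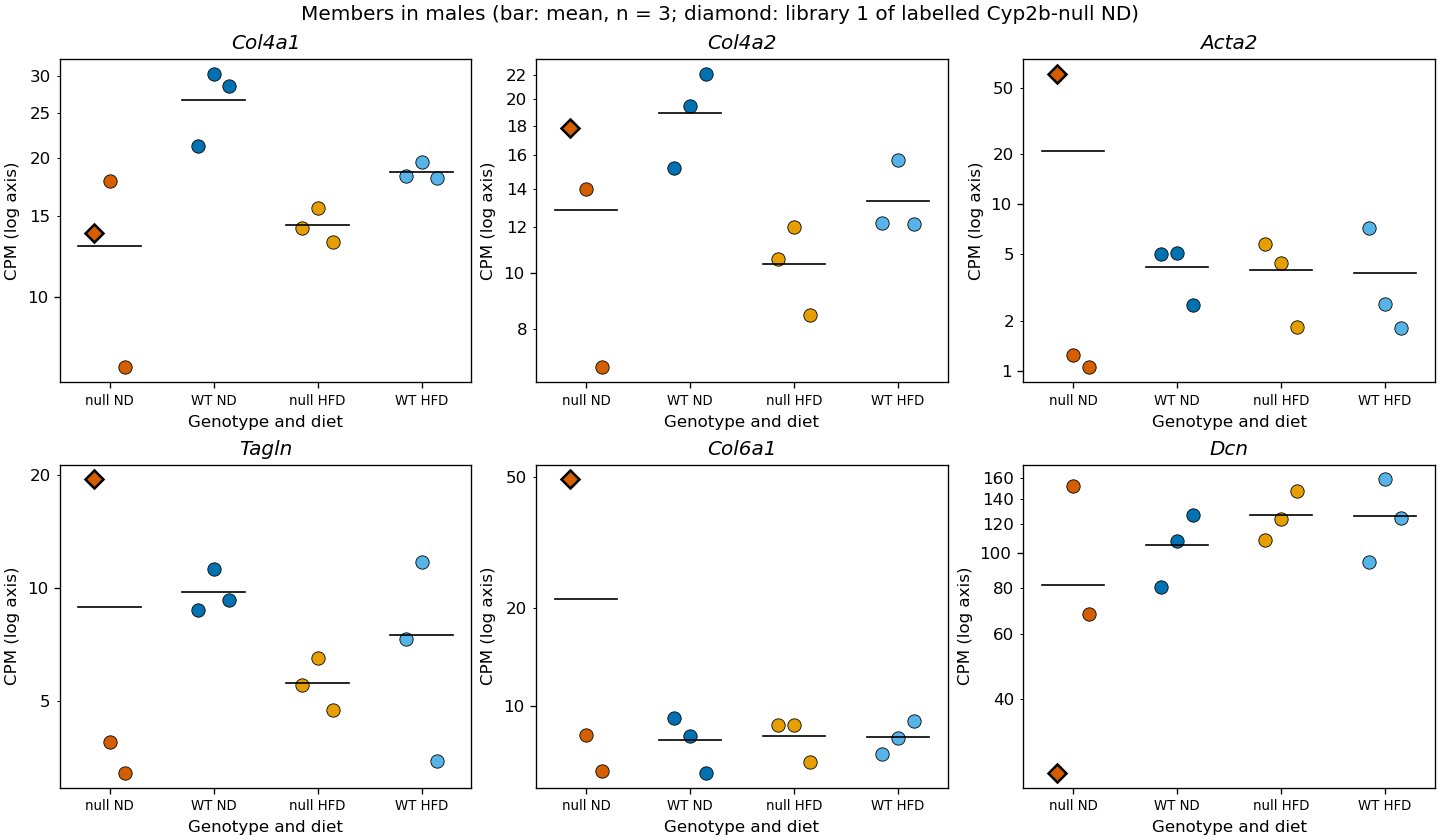
Scaled counts (CPM, log axis) in each male library for 6 members, by genotype label and diet; points are libraries and bars the mean of 3, and the diamond is library 1 of the labelled Cyp2b-null ND group. That library was at 60.6 CPM for Acta2, above all others, and at 25.2 CPM for Dcn, below all others, while Col4a1 was lower in labelled Cyp2b-null than in WT libraries on each diet without overlap.

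Col6a1, a chain of the beaded-filament collagen VI (chromosome 10, 76708792 to 76726168, minus strand), had 49.4, 8.17 and 6.34 CPM in males labelled Cyp2b-null and 9.17, 8.12 and 6.24 CPM in WT males on ND. Only the divergent library lay outside the range of the others, and the log2 difference was 1.42 ± 0.61 with it (unadjusted p = 0.0385, adjusted p = 0.251) and -0.11 ± 0.24 without it. Sparc had 24.9, 40.1 and 16.4 CPM in males labelled Cyp2b-null and 33.3, 45.5 and 48.5 CPM in WT males (-0.64 ± 0.32, adjusted p = 0.296; -0.58 ± 0.33 without the divergent library). Fibulin 5 (Fbln5), which helps to assemble elastic fibres, had 2.54, 5.32 and 2.62 CPM in males labelled Cyp2b-null and 5.62, 5.96 and 5.64 CPM in WT males. Its groups did not overlap with or without the divergent library (-0.69 ± 0.35, adjusted p = 0.301; -0.52 ± 0.34 without it), so that Col4a1 and Fbln5 were the 2 of 33 members below WT without overlap when all libraries were used, against 12.5% of all genes.

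The divergent library was at an extreme for many members. It was the highest of the 12 male libraries for 18 of 33 members, where it was so for 33.7% of all genes, and these included the 5 fibrillar collagens, the 3 chains of collagen VI, the 4 contractile and cytoskeletal genes and Pdgfrb, the receptor through which platelet-derived growth factor drives stellate cell division. Elastin (Eln), the core of elastic fibres, had 24.4 CPM there and at most 5.10 CPM in the other 11, Des 23.4 and at most 4.19 CPM, and Col1a1 19.9 and at most 5.74 CPM. It was the lowest for 5 members, against 37.1% of all genes: Dcn (25.2 CPM, and 68.1 to 158 CPM in the other 11), Lum (1.20 and 2.75 to 7.49 CPM), Lrat (4.82 and 9.22 to 34.0 CPM), Reln (28.9 and 31.5 to 73.1 CPM) and Col14a1 (18.7 and 19.3 to 62.8 CPM). The summed level of the 35 members in it was 648 CPM, within the range of the other male libraries.

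Markers of several other cells, but not of all, stood apart in the same library. Myh11, the myosin heavy chain of smooth muscle, had 76.9 CPM there and at most 12.3 CPM in the other 11, and the sum of the 10 smooth muscle markers was 365 CPM, against 137 to 292 CPM. The 13 markers of portal fibroblasts and mesothelium summed to 88.6 CPM, against 10.4 to 26.0 CPM, the 18 of endothelium to 761 CPM, against 357 to 551 CPM, and the 6 of neutrophils to 12.8 CPM, against 2.03 to 6.25 CPM. The 9 markers of hepatocytes summed to 48053 CPM, against 74200 CPM or more, and the 22 further stellate cell markers to 549 CPM, against 725 to 1000.4 CPM. The 14 immediate early genes summed to 2320 CPM, against 145 to 1315 CPM. Within the range of the other libraries were the sums of 16 Kupffer cell markers (322 CPM, against 226 to 513 CPM) and 5 erythroid markers (291 CPM, against 106 to 337 CPM). So was that of 5 adipocyte markers (38.9 CPM, against 0.392 to 40.3 CPM). None of these markers was at 0 in all male libraries. The part of these cells, of tissue handling or of the high mitochondrial share in the members' values was not tested. The plot of male genotype differences shows how far each member moved when the library was left out.

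**Figure D4:**
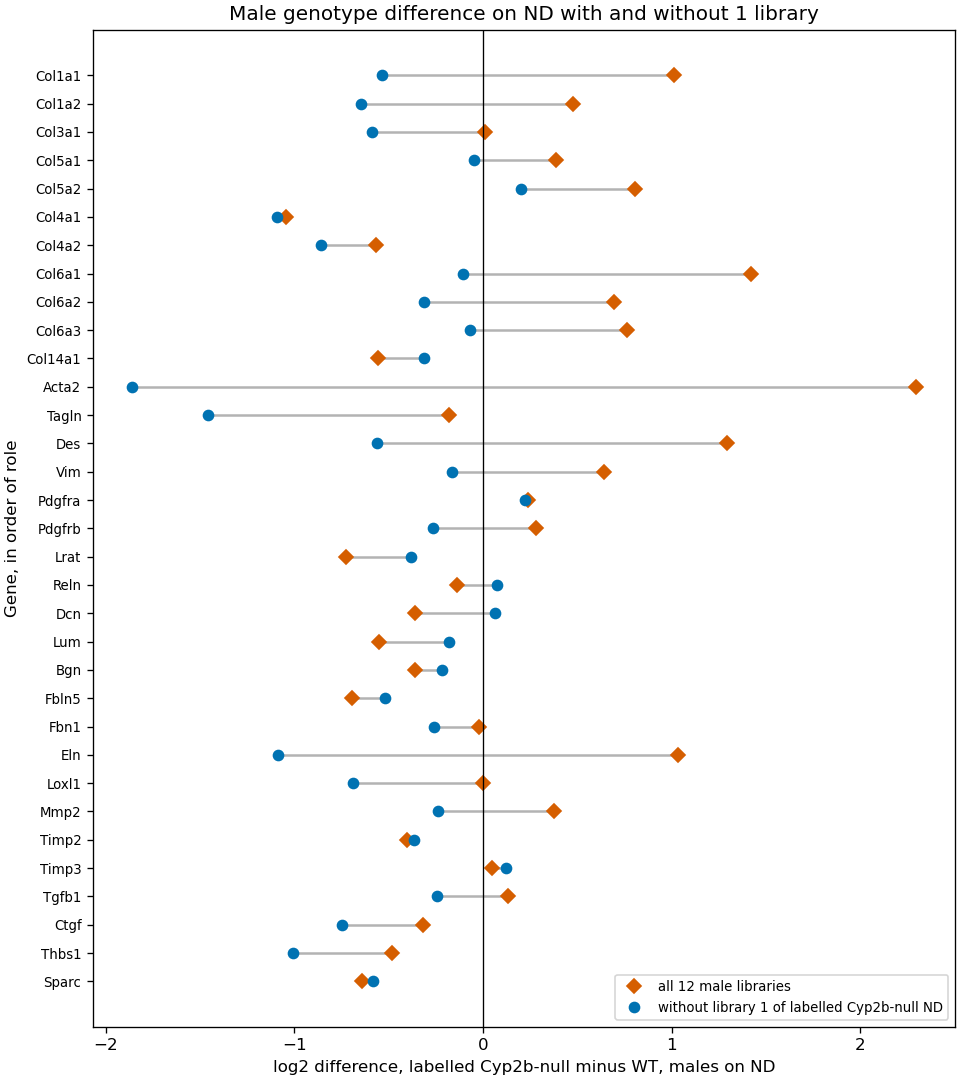
Log2 difference of each of 33 members between males labelled Cyp2b-null and WT on ND, estimated by edgeR with all 12 male libraries (diamonds) and without library 1 of the labelled Cyp2b-null group (circles). Acta2 moved from one side of 0 to the other (2.29 with all libraries, -1.86 without the library), while Col4a1 lay at -1.05 and -1.09.

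The diet comparison in males labelled Cyp2b-null has the divergent library on its ND side. With all libraries 0 of 33 members were called (0% of all genes), and 2 had an unadjusted p under 0.05, Col6a1 and Eln, both lower on HFD, which 8.49% of all genes were. Without that library 0 were called (0.0859% of all genes) and 2 others had an unadjusted p under 0.05, Acta2 and Thbs1, both higher on HFD (3.15% of all genes). The median over the members, HFD minus ND, was -0.21 with it and 0.16 without it, and -0.53 without ND library 3. Eln had 2.25, 2.85 and 0.674 CPM on HFD and 24.4, 1.72 and 2.55 CPM on ND, and its log2 difference was -2.25 ± 0.87 with the divergent library (unadjusted p = 0.0246, edgeR adjusted p = 0.435) and -0.12 ± 0.49 without it.

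Des, Col1a1 and Pdgfrb were also highest in the divergent library. Des had 2.93, 4.19 and 2.89 CPM on HFD and 23.4, 2.85 and 2.22 CPM on ND (-1.47 with and 0.38 without the divergent library, on the log2 scale). Col1a1 had 4.34, 1.69 and 2.89 CPM on HFD and 19.9, 4.09 and 1.504 CPM on ND (-1.46 and 0.10). Pdgfrb had 5.69, 6.86 and 7.02 CPM on HFD and 19.3, 9.46 and 6.21 CPM on ND (-0.82 and -0.27). Acta2 had 5.80, 4.45 and 1.83 CPM on HFD in males labelled Cyp2b-null, all above the 1.24 and 1.05 CPM of the other 2 ND libraries, with a log2 difference of 1.83 ± 0.64 without the divergent library (unadjusted p = 0.0137, edgeR adjusted p = 0.554) and -2.33 ± 1.21 with it. Without that library 5 of 33 members were higher on HFD without overlap (Col5a2, Acta2, Tagln, Des and Thbs1), against 9.88% of all genes.

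The divergent library is not among the WT males, and the diet comparison there again called 0 of 33 members, against 0% of all genes with all libraries and 0.72% in the fit without the divergent library. At an unadjusted p under 0.05 there were 0 members in both fits (6.49% and 17.2% of all genes). The log2 difference, HFD minus ND, was above 0 for 10 of 33 members (51.9% of all genes), with a median of -0.11, which lay between -0.29 (without WT HFD library 2) and -0.02 (without WT HFD library 1 or WT ND library 2) when each library was left out. Col4a1 had 18.3, 19.5 and 18.1 CPM on HFD and 21.2, 30.3 and 28.5 CPM on ND, without overlap (-0.52 ± 0.29 with all libraries, edgeR adjusted p = 0.833). In the fit without the divergent library the smallest edgeR adjusted p of any member here was 0.296. Des, Fbln5, Eln and the lysyl oxidase relative Loxl1, which cross-links elastin, were also lower on HFD without overlap, which makes 5 of 33 members, against 10.1% of all genes. The 4 members at an unadjusted p under 0.05 in WT females (Timp2, Tgfb1, Vim and Col14a1) had overlapping groups here: Timp2, for one, had 10.8, 10.9 and 8.92 CPM on HFD and 9.95, 13.5 and 9.997 CPM on ND. Whether the diet difference itself differed between the sexes was not tested. The 5 adipocyte markers summed to 18.4, 27.4 and 16.1 CPM in WT males on HFD and 1.82, 0.866 and 0.940 CPM on ND, and their part in the members' values was not tested.

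The male interaction called 0 of 33 members with all libraries (0% of all genes) and 0 without the divergent one (0.00661% of all genes). With all libraries 0 had an unadjusted p under 0.05 (4.65% of all genes). Without that library 1 did, Acta2, above 0 (1.96 ± 0.82, unadjusted p = 0.0331, adjusted p = 0.615), where 2.95% of all genes did. The median over the members was -0.11 with it and 0.30 without it, and leaving out each other library moved it between -0.45 (without labelled Cyp2b-null ND library 3) and 0.13 (without WT HFD library 2). The genotype comparisons share libraries with the diet comparisons, so a group that lies low, such as the labelled Cyp2b-null males on ND without library 1, enters both.

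The spread between libraries of a group was wide for several members. In females the coefficient of variation within a group, as the median over the 4 groups, was 12.4% for Reln and 17.5% for Dcn, but 80.0% for Ctgf, a matricellular target of transforming growth factor beta, and 95.3% for Acta2. Acta2 had only 0 to 13 counts in a female library, and Ctgf 1 to 34. In males without the divergent library it was 13.3% for Col4a1 and 42.8% for Acta2, and 89.0% for Thbs1, an activator of latent transforming growth factor beta that had 2 to 46 counts over all male libraries. The highest Thbs1 and Ctgf levels in males were both in labelled Cyp2b-null HFD library 2, at 4.10 and 10.9 CPM.

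The other genes of the pathways around these members were counted from lists chosen by role. Of 29 genes of transforming growth factor beta signalling (receptors, Smads, latency proteins and integrins), 24 were tested in females and 28 in males, and 0 were called in any comparison with or without the divergent library. The same held for 23 genes of collagen biosynthesis and cross-linking (17 and 22 tested), for 26 other matrix glycoproteins and proteoglycans (9 and 19 tested), for 22 matrix proteases and their inhibitors (9 tested in females, and 14 in males with all libraries), for the 4 ligands of platelet-derived growth factor receptors (2 and 4 tested) and for the 22 further stellate cell markers (20 and 21 tested). Without the divergent library 15 proteases and inhibitors were tested in males. Of 21 further basement membrane genes (laminins, nidogens, perlecan and others), 0 of 13 were called in females and 0 of 19 in males with all libraries.

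Without the divergent library 20 of these basement membrane genes were tested in males, and nidogen 2 (Nid2), which links laminin to type IV collagen, was called lower on HFD in WT males. It had 4.52, 5.93 and 4.94 CPM on HFD and 13.1, 11.3 and 9.65 CPM on ND, with a log2 difference of -1.15 ± 0.22 (edgeR adjusted p = 0.0295). With all libraries it was not called by edgeR, nor by DESeq2 (adjusted p = 0.457). Among the marker lists of other liver cells 1 gene was called, Prom1, a membrane glycoprotein of biliary cells, in females on ND. It had 1.30, 1.35 and 1.62 CPM in Cyp2b-null and 10.7, 13.5 and 20.2 CPM in WT females (-3.33 ± 0.46, edgeR adjusted p = 0.00679), and the call was lost, at about the same log2 difference, without WT ND library 3 (-3.03, adjusted p = 0.0784) or Cyp2b-null ND library 3 (-3.43, adjusted p = 0.0504).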

How the data were processed

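Liver RNA-seq libraries of females (12) and males (12) were counted per gene by the submitters, who deposited 1 table of raw counts per sex. The submitters' processing notes name FastQC, Trimmomatic, GSNAP, Subread, edgeR and the build GRCm38.p5, without versions. Whether counting used strand is not given in the sources used here. The deposited counts were tested as they stand. In males 1806 duplicated symbols were summed (none a member), and 25 symbols that a spreadsheet had turned into dates, up to 0.1601% of the counts, were left untested but kept in library sizes. Groups follow the sample titles, which the genotype label of 6 female libraries contradicts.

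A separate edgeR 4.0.16 fit was made for each sex in R 4.3.3 (TMM scaling, filterByExpr by group, 1 term per group, robust quasi-likelihood test, Benjamini-Hochberg adjustment over all genes tested, threshold 0.05). Counts per 1000000 (CPM) use the TMM factors, and log2 levels for principal components and pairing a prior count of 2. The biological coefficient of variation was 0.269 in females (0.211 with the term for library sides), 0.34 in males and 0.219 in males without the divergent library. Scripts were tested on simulated data. Replicates of a group differed beyond sampling noise (chi-square over its degrees of freedom at least 6.19). Same-numbered libraries deviated together, with every r above 0.1, only between HFD and ND in WT. There r was 0.564, 0.139 and 0.279 in females and 0.114, 0.127 and 0.11 in males. The values given for that comparison come from the fit without pairs, and pairs entered only the alternative with a replicate block. With that block the smallest unadjusted p of a member there was 0.0114 in females and 0.0917 in males (edgeR).

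The members and all lists were chosen with earlier results of these data known. Members with values in every library are those called, filled up to 8 per sex by smallest unadjusted p over the 4 simple comparisons. Those named outside this rule were chosen after their values were seen. Alternatives were DESeq2 1.42.0, RLE scaling, no filter on low counts, the compared groups alone, the first of duplicated symbols, a replicate block and each library left out, and, added after seeing the data, a term for the female library sides. Coordinates came from the GENCODE annotation of GRCm38 and sequence from RefSeq on GRCm38.p6. One marker gene and the list that holds it are not reported here.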

Additional observations from a re-analysis of the deposited data

Results flagged for a closer look

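Loxl1, a relative of lysyl oxidase that acts on elastin, differed in opposite directions between the diets in WT mice of each sex, without overlap of the groups in either. In WT females it averaged 3.85 ± 2.39 CPM on HFD and 1.19 ± 0.615 CPM on ND, a difference of 2.66 CPM (SD, n = 3 each). These female values rest on few reads, with 17, 7 and 5 counts on HFD and 3, 1 and 4 counts on ND. In WT males it averaged 1.27 ± 0.170 CPM on HFD and 1.96 ± 0.326 CPM on ND, a difference of -0.692 CPM (SD, n = 3 each). The difference between the sexes was not tested, since the gene was below the filter with all female libraries and sex and library kit cannot be told apart. Of 11113 genes tested in both sexes, 0.72% had opposite differences without overlap in this comparison. That set leaves out Loxl1 and other genes below the filter in either sex, so the share does not cover genes at such low counts.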

How the results depend on the processing

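The count of members called was 0 with all libraries by edgeR in each of the 10 comparisons, and it moved in 1 of them, labelled Cyp2b-null against WT males on ND. There DESeq2 called 1 member (Col4a1), and leaving out each library gave between 0 and 2. The 2 were Col4a1 and Col14a1, without labelled Cyp2b-null ND library 2, which leaves only the divergent library and library 3 in that group. The share of all genes called is not given for DESeq2 or for the fit without library 2. The replicate block gave 0 members called in each comparison, so the pairing changed no call. In the same comparison, leaving out each library moved Acta2 between -1.86 and 2.83, Col6a1 between -0.11 and 1.83, Tagln between -1.46 and 0.20, Dcn between -1.20 and 0.07 and Col4a1 between -1.41 and -0.77 (log2). Between HFD and ND in males labelled Cyp2b-null the ranges were -2.90 to 1.83 for Acta2, -1.81 to 0.15 for Col6a1, -1.95 to 0.38 for Des and -1.97 to 0.10 for Col1a1, and the Acta2 interaction ran from -2.75 to 1.96. For Acta2, Col6a1, Dcn, Des and Col1a1 the reversal came without the divergent library. For Tagln it came without library 2 (0.15) or library 3 (0.20) of the labelled Cyp2b-null ND group, which leaves the divergent library with 1 other. Without the divergent library Dcn was at 0.065. The cause was not tested. Without Cyp2b-null HFD library 1 the female median over the members, HFD minus ND in Cyp2b-null, was -0.41. Under the alternatives that kept all libraries, the added term for the female library sides among them, 174 values of single members kept their direction and side of the threshold, and 1, Col4a1 by DESeq2 (-1.06), passed it. The compared groups alone could not be fitted for the interaction. With all female libraries Lox, Timp1, Fbn1, Loxl1 and Thbs1 were below the filter, and 31 members instead of 30 were tested in most fits that left 1 library out, Loxl1 being added.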
